A study of Mus musculus with 6 samples.

Results

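The interferon-stimulated genes (ISGs) described here are 43 genes that cells switch on when they sense interferon, taken from the counts by gene symbol. The lookup by symbol used no expression value, but the members were chosen with earlier results of these data known. All 43 were found among the 56980 genes listed in the counts, and all 43 were among the 15190 genes that passed the low-count filter and were tested. Bone marrow mesenchymal stem cells (BM MSCs) from female mice were compared by RNA-Seq between 3 samples of the TranspCtrl group and 3 samples of the TranspExer group. The mice of both groups had their ovaries removed (OVX) at 8 weeks of age, had their own gut microbiota depleted with antibiotics, and received fecal microbiota transplantation (FMT) for 8 weeks. The donors, which the study describes as osteoporotic too, were sedentary mice for TranspCtrl and mice that had exercised for 8 weeks for TranspExer, so the comparison asks how the exercise of the donor bears on the marrow cells of the recipient. The cells were grown for 7 days from flushed marrow, with washes and no sorting step described. The mouse strain is not given in the sources used here. The labels do not say whether a sample came from 1 animal, a pool or a culture, and the p-values therefore measure the spread between these samples, which may be technical.

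Interferons are secreted when sensors inside the cell or at its endosomes meet viral or microbial nucleic acids. Type I interferons (the alpha and beta forms) act through the receptor chains Ifnar1 and Ifnar2, and a complex that holds the transcription factors Stat2 and Irf9 then binds a DNA word called the interferon-stimulated response element (ISRE) in front of antiviral genes. Interferon gamma acts through Ifngr1 and Ifngr2, and its signal reaches another word, the gamma-activated site (GAS), in front of genes that include the guanylate-binding proteins, although the ISG sets of the 2 signals overlap widely.

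Promoters of the members held the ISRE word in a larger share than promoters at large. In RefSeq promoter windows of 300 bases on GRCm38.p6 (250 bases before and 50 after a gene's start, the same assembly as the mm10 of the submitters' processing notes), 33 of the 43 members had a window. The word GAAANNGAAA, searched on both strands, was present in at least 1 window of 20 of these 33 members (60.6%) and of 3.99% of all 27025 genes with a window. The word TTCNNNGAA, a GAS core that is its own reverse complement, was present in 11 of the 33 members (33.3%) and in 9.55% of all genes, and 1 of its matches in members overlapped an ISRE word. All 6 guanylate-binding proteins and immunity-related GTPases with a window held an ISRE word, and 3 of them held a GAS word. Of the OAS family, 2 of 4 members with a window held an ISRE word and 1 held a GAS word. A match is a string of letters and not a bound site. *Rtp4*, *Parp14*, *Mx2*, *Oas2*, *Usp18*, *Mx1*, *Ifi27*, *Zbp1*, *Iigp1* and *Dhx58* were not analysed here for promoter words.

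The stretches below are examples of such words in front of members called higher (*Rsad2*, *Oas3*) and lower (*Gbp7*, *Gbp3*), and, for *Isg15*, *Ifit3* and *Ifit3b*, of repeated or copied words. Each is written 5′ to 3′ on the strand of its gene, with the ISRE words in capitals. *Rsad2* is read from chr12:26456543-26456592 and *Oas3* from chr5:120777705-120777754, both on the minus strand. *Isg15* is read from chr4:156200855-156200916 on the minus strand, and its capitals hold 3 overlapping words. *Gbp7* is read from chr3:142530263-142530312 and *Gbp3* from chr3:142559979-142560034, both on the plus strand. *Ifit3* is read from chr19:34583353-34583436 and *Ifit3b* from chr19:34607749-34607832, both on the plus strand, and these 84 bases are identical in the pair.
Rsad2: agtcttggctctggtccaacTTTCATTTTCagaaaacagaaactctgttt
Oas3: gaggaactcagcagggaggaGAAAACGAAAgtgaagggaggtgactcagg
Isg15: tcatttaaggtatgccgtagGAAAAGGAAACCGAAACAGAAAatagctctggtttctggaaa
Gbp7: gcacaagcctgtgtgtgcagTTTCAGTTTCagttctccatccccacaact
Gbp3: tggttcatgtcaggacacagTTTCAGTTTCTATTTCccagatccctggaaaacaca
Ifit3: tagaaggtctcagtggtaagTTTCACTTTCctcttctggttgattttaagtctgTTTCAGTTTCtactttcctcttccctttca
Ifit3b: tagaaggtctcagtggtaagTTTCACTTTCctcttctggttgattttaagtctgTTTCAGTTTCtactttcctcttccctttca

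*Gbp7* also held 2 GAS words further upstream, shown in capitals in the next stretch, from chr3:142530210-142530277 on the plus strand.
Gbp7: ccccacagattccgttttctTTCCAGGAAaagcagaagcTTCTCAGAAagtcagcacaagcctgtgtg

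Total counts were 17647682 to 21319228 per sample, at which 3 counts, the floor used here for counting error only, equalled 0.139 to 0.174 CPM (counts scaled to a common library total). Markers of the labelled cell type were abundant in all samples, but so were those of other marrow cells. The summed level of 10 stromal markers was 14550 to 22740 CPM in TranspCtrl and 13970 to 15260 CPM in TranspExer, with 2 of them higher and 6 lower in TranspExer. The 10 macrophage markers summed to 8976 to 13870 CPM in TranspCtrl and 7072 to 7672 CPM in TranspExer (1 higher, 3 lower). Without *Lyz2*, the other 9 summed to 4764, 4081 and 4016 CPM in TranspCtrl replicates 1 to 3 against 4437, 4540 and 4476 CPM in TranspExer, and the groups overlapped. The 10 B cell and plasma cell markers summed to 3992 to 6437 and 963 to 1039 CPM (8 lower), and the 10 endothelial markers to 210 to 256 and 666 to 725 CPM (10 higher). Of 10 neutrophil markers 4 were higher and 1 lower (3235 to 4312 and 5566 to 5784 CPM), of 10 T and NK cell markers 2 were higher and 1 lower, of 6 tested plasmacytoid dendritic cell markers 2 were lower, and the 8 erythroid markers summed to at most 0.944 CPM in any sample and were not tested. No marker of these lists was at 0 in all samples. TranspCtrl replicate 1 stood apart from TranspCtrl replicates 2 and 3. The distance in log2 CPM over the members was 3.07 and 2.74 from replicate 1 to replicates 2 and 3, and 0.743 between replicates 2 and 3. That library also had the highest macrophage sum (13870 against 8976 and 9254 CPM) and B cell sum (6437 against 3992 and 4223 CPM) of its group, mostly through *Lyz2* and *Ighm*, the highest neutrophil sum (4312 against 3235 and 3640 CPM) and the lowest stromal sum (14550 against 22740 and 21800 CPM). Of the 10 macrophage markers, 8 were higher in it than in replicates 2 and 3, and *Cd68* and *Csf1r* were lower. Values without it are given below beside results that it moved.

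ISGs did not move together between the groups. With edgeR's quasi-likelihood test and Benjamini-Hochberg adjustment over all tested genes, 9 of the 43 members (20.9%) were higher in TranspExer at an adjusted p under 0.05 and 12 (27.9%) were lower, against 16.6% and 15.5% of all tested genes. The median log2 fold change (TranspExer over TranspCtrl) was -0.10 over the members and -0.02 over all tested genes, and 0.03 over the members without TranspCtrl replicate 1. The higher members included 3 of the oligoadenylate synthetase (OAS) family and the neighbours *Rsad2* and *Cmpk2*. Among the lower members were all 7 guanylate-binding proteins (GBPs) and immunity-related GTPases (IRGs) of the list. Only *Rsad2* and *Isg20* met both DEG thresholds (adjusted p under 0.05, level changed at least 2-fold), so that 1 member was a DEG in each direction, against 3.5% of all tested genes that were upregulated DEGs and 5.28% that were downregulated. In 10 members every TranspExer sample was above every TranspCtrl sample and in 16 every TranspExer sample was below, against 27.2% and 25.1% of all tested genes. In bulk RNA, fewer cells of a type and less RNA per cell cannot be told apart, and the part of the cell type markers above in these differences was not tested.

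**Figure D1:**
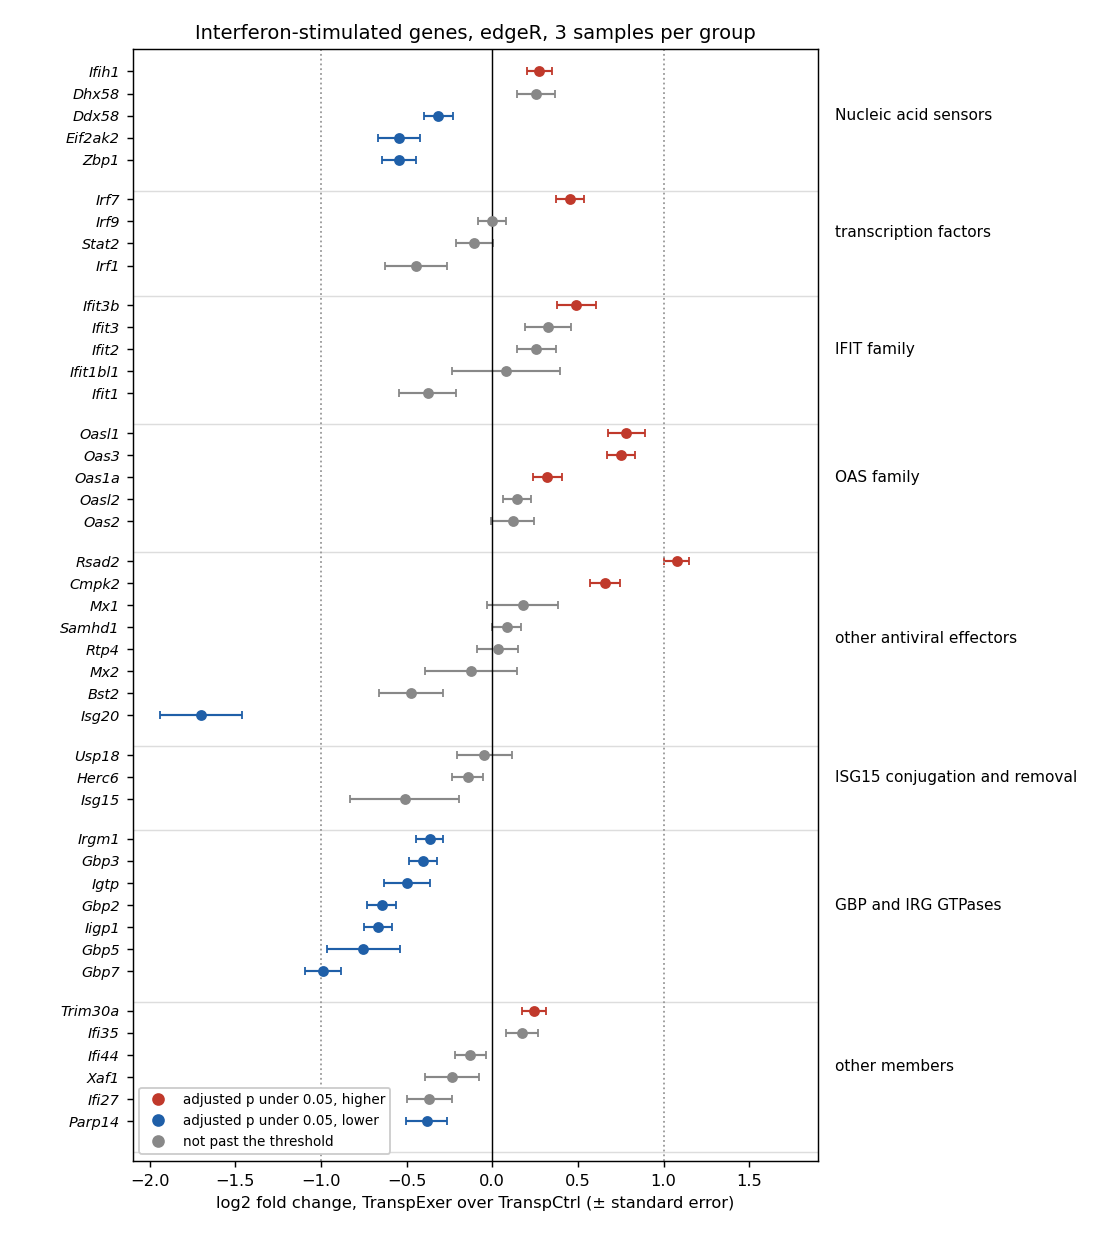
Log2 fold change of TranspExer over TranspCtrl on the x axis for each of the 43 members, grouped by role and sorted within it, with points coloured by the edgeR call and bars giving the standard error. The 7 GBP and IRG genes all lie left of 0 and the 5 OAS genes right of 0, and dotted lines mark a fold change of 2.

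The counts depended on single libraries. Without TranspCtrl replicate 1, 17 members were higher and 15 lower, while calls over all tested genes also became more frequent (22.1% higher and 19.6% lower). Without TranspCtrl replicate 3, 6 were higher and 12 lower (13.2% and 12% of all tested genes). Without TranspExer replicates 1, 2 and 3 in turn, 7, 5 and 5 were higher and 7, 6 and 7 were lower, and the shares of all tested genes fell as well, to 8.42% to 9.39% higher and 8.48% to 9.06% lower. Scaled by library size only, 6 were higher and 13 lower (13.3% and 19.5% of all tested genes). The members called in the full comparison and in all 12 alternatives of processing were *Irf7*, *Oas3*, *Oasl1*, *Rsad2* and *Cmpk2* on the higher side and *Zbp1*, *Isg20*, *Gbp2*, *Gbp3*, *Gbp7* and *Iigp1* on the lower side, 11 of the 21 called.

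The mean log2 CPM over the 43 members did not separate the groups. Values per sample are given here and in what follows in the order of replicates 1, 2 and 3. The mean was 6.05, 5.71 and 5.73 for TranspCtrl against 5.76, 5.78 and 5.72 for TranspExer. TranspCtrl replicate 1 lay well above the other 5 samples, and the groups overlapped. The group means were 5.83 ± 0.19 (SD, n = 3) and 5.75 ± 0.03 (SD, n = 3), a difference of -0.08, which became 0.03 without TranspCtrl replicate 1. A level above that of both other TranspCtrl samples was seen in replicate 1 for 36 of the 43 members.

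**Figure D2:**
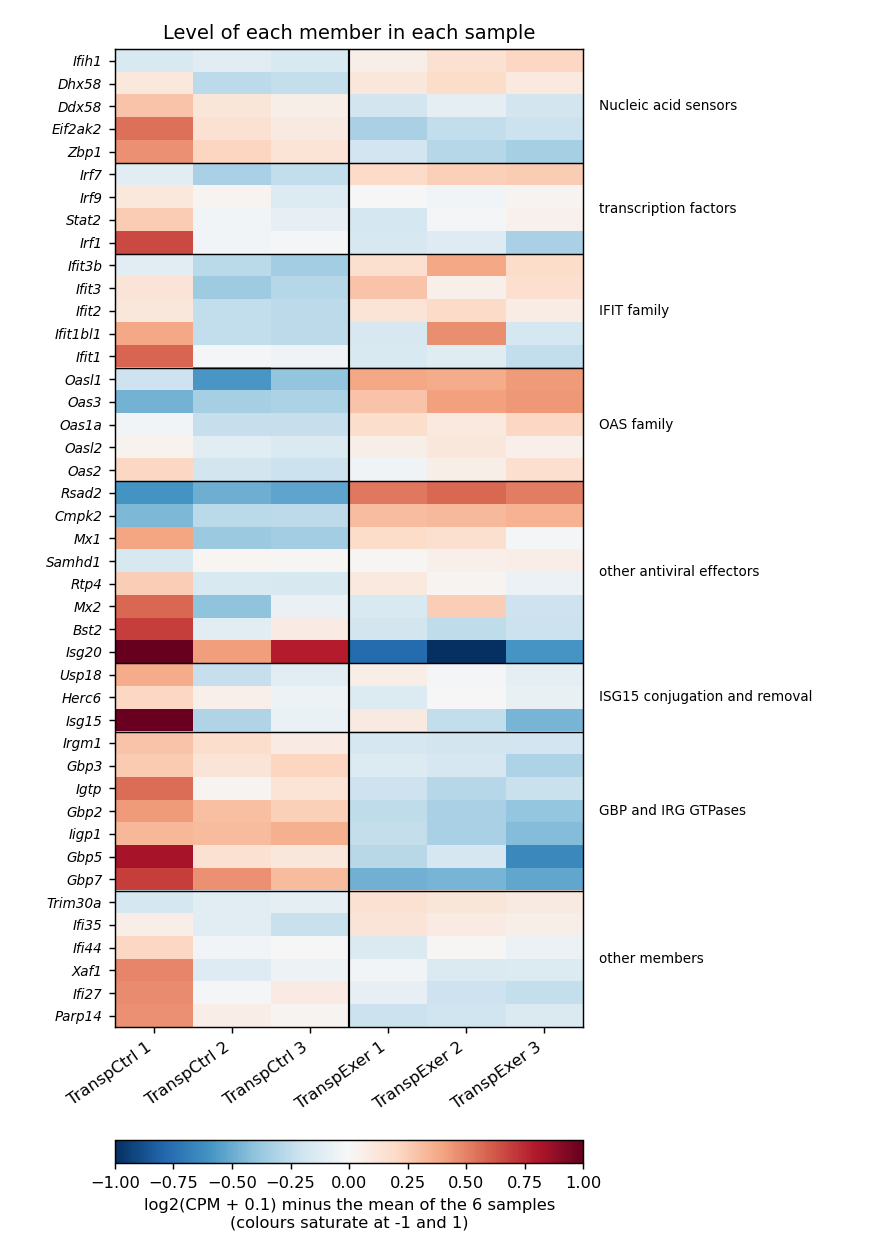
Log2(CPM + 0.1) of each member in each sample minus the mean of the 6 samples, as a colour scale from -1 to 1, with 1 row per member and 1 column per sample. The column of TranspCtrl replicate 1 is redder than those of replicates 2 and 3 in most rows, while the GBP and IRG rows are red in all 3 TranspCtrl columns and blue in all 3 TranspExer columns.

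Viperin, the product of *Rsad2* (chr12:26442746-26456452, minus strand), makes a nucleotide analogue that stops viral RNA synthesis. *Rsad2* was at 25.4, 27.6 and 26.8 CPM in TranspCtrl and at 55.7, 57.6 and 55.2 CPM in TranspExer. All 3 TranspExer samples lay far above all 3 TranspCtrl samples, and within a group the samples lay close together. The means were 26.6 ± 1.08 and 56.2 ± 1.27 CPM (SD, n = 3 each), a 2.11-fold higher level (log2 fold change 1.08, SE 0.07, adjusted p = 7.57e-05, edgeR). *Cmpk2*, a mitochondrial nucleotide kinase whose gene starts next to *Rsad2* on the opposite strand (chr12:26469204-26479837), was at 18.9, 21.5 and 21.6 CPM in TranspCtrl and at 32.2, 32.6 and 33.1 CPM in TranspExer. Its groups did not overlap either, and its log2 fold change was 0.66 (SE 0.09, adjusted p = 0.0013, edgeR). For *Rsad2* and *Cmpk2*, TranspCtrl replicate 1 was the lowest sample of all, unlike in most members. Scaled by library size only, the log2 fold change of *Rsad2* was 0.99, under the fold threshold for a DEG.

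*Isg20*, an RNA exonuclease, showed the largest difference of any member. Its level was 22.7, 12.4 and 16.0 CPM in TranspCtrl and 5.39, 4.18 and 6.11 CPM in TranspExer. Every TranspExer sample was below every TranspCtrl sample, although the TranspCtrl samples spread widely. It was 3.25-fold lower in TranspExer (log2 fold change -1.70, SE 0.24, adjusted p = 0.00174, edgeR), and -1.44 on the log2 scale without TranspCtrl replicate 1. *Isg20* thus moved against *Rsad2* within the same class of antiviral effectors. The B cell and plasma cell markers differed in the same direction as *Isg20*, and their part in its fall was not tested.

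The other 5 antiviral effectors did not pass the test. *Bst2*, or tetherin, which holds budding virus at the cell surface, had the highest level per kilobase of any member (209 CPM per kb in TranspCtrl and 150 in TranspExer). It was at 223, 127 and 146 CPM in TranspCtrl and at 122, 116 and 119 CPM in TranspExer. All TranspExer samples were below all TranspCtrl samples, but replicate 1 alone gave most of the distance, and the adjusted p was 0.087 (edgeR, log2 fold change -0.48, SE 0.19). Without that replicate the log2 fold change was -0.20 with an adjusted p of 0.0207. *Samhd1*, which breaks down nucleotides, *Rtp4* and the dynamin-like *Mx1* and *Mx2* had log2 fold changes of -0.12 to 0.18, and the groups overlapped in each. *Mx1* (0.47, adjusted p = 0.0015) and *Rtp4* (0.18, adjusted p = 0.0326) were also called higher by edgeR without TranspCtrl replicate 1. *Mx2* was at 0.19 and *Samhd1* at 0.03 without that library, neither of them called.

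OAS enzymes sense double-stranded RNA and make oligoadenylates that switch on RNase L. In this family 3 of 5 members were higher and none was lower, against 16.6% and 15.5% of all tested genes. All 5 log2 fold changes were positive (median 0.32). *Oas3* (chr5:120753098-120777661, minus strand) was at 75.8, 83.7 and 84.5 CPM in TranspCtrl and at 129, 140 and 143 CPM in TranspExer. The groups were widely separated, with TranspCtrl replicate 1 the lowest sample. The log2 fold change of *Oas3* was 0.75 (SE 0.08, adjusted p = 0.00051, edgeR). *Oasl1*, a relative without enzyme activity that holds back the translation of *Irf7* mRNA, was at 20.9, 16.1 and 18.4 CPM in TranspCtrl and at 31.5, 31.3 and 32.4 CPM in TranspExer. Its 3 TranspExer samples lay close to each other and above all TranspCtrl samples, and the log2 fold change was 0.78 (SE 0.11, adjusted p = 0.00157, edgeR).

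*Oas1a* was also higher (log2 fold change 0.32, SE 0.08, adjusted p = 0.0232, edgeR), at 85.1, 73.8 and 73.7 CPM in TranspCtrl and 98.0, 92.6 and 99.9 CPM in TranspExer. Its call was lost in 7 of the 12 alternatives, including those without TranspCtrl replicate 2 or 3 and without each TranspExer replicate (adjusted p 0.0656 to 0.106). Of the 50-base words in the transcripts of *Oas1a*, 57.6% also occur in *Oas1g*, so its counts depend on how shared reads were divided, which is not given in the sources used here. *Oasl2*, with the highest level per kilobase in the family, was at 200, 180 and 177 CPM in TranspCtrl and 203, 211 and 202 CPM in TranspExer. All its TranspExer samples were above all its TranspCtrl samples, by a margin smaller than the spread of the TranspCtrl samples (log2 fold change 0.15, adjusted p = 0.195, edgeR). *Oas2* overlapped between the groups (0.12, adjusted p = 0.487, edgeR). All 5 members of the family were called higher without TranspCtrl replicate 1, *Oas2* at 0.27, against 22.1% of all tested genes in that setting.

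**Figure D3:**
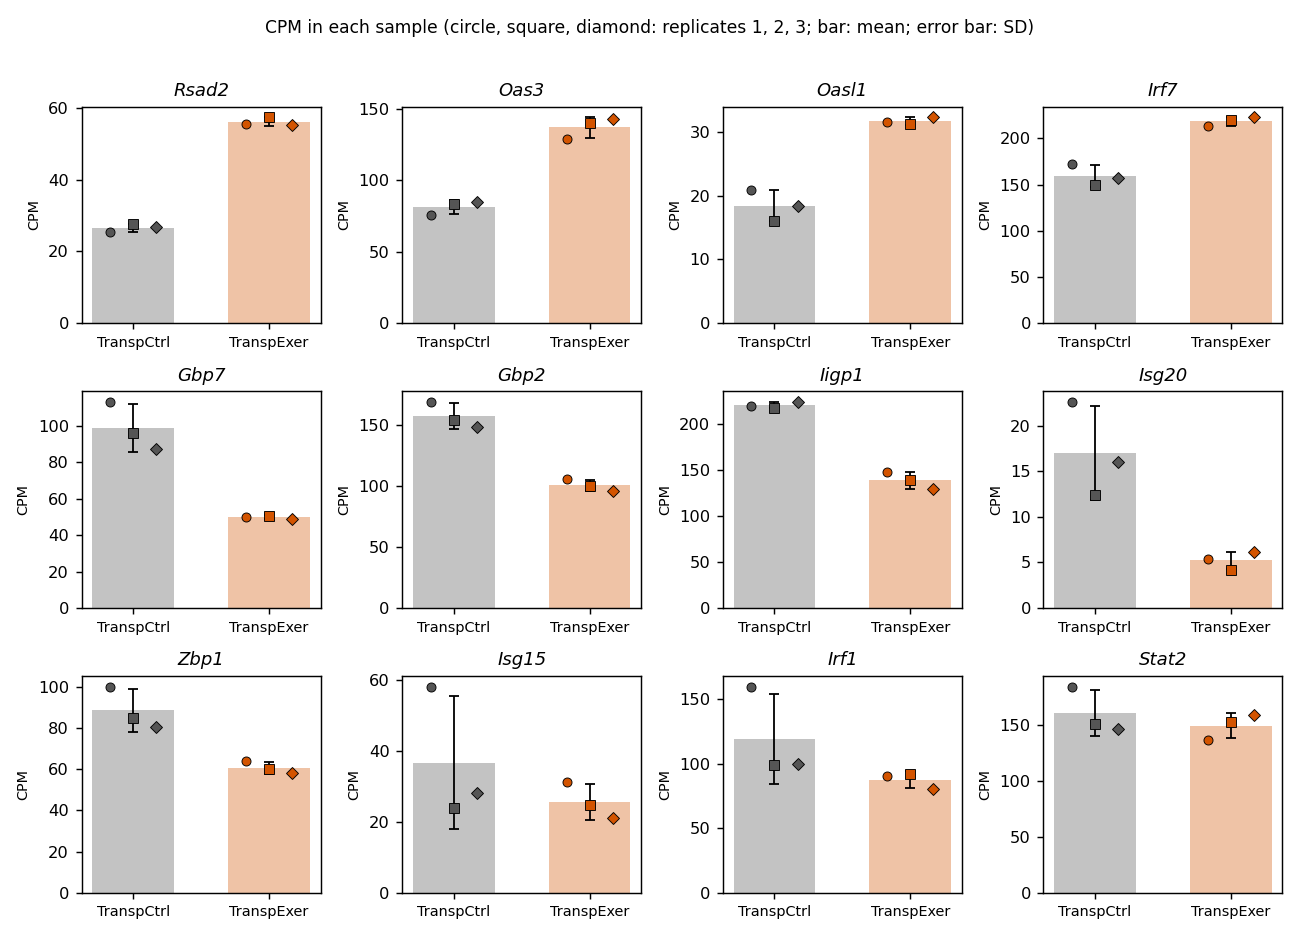
CPM in each sample for 12 members, with TranspCtrl in grey and TranspExer in orange. Circles, squares and diamonds are replicates 1, 2 and 3, bars are group means and error bars are SD. The 3 TranspExer points of *Rsad2*, *Oas3*, *Oasl1* and *Irf7* are above and those of *Gbp7*, *Gbp2*, *Iigp1*, *Isg20* and *Zbp1* below all TranspCtrl points, while *Isg15* and *Irf1* have 1 high TranspCtrl point.

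GBPs and IRGs are large GTPases that attack the vacuoles of intracellular bacteria and parasites and are best known as targets of interferon gamma. All 7 members of this class (*Gbp2*, *Gbp3*, *Gbp5*, *Gbp7*, *Igtp*, *Irgm1* and *Iigp1*) were lower in TranspExer, against 15.5% of all tested genes. Their log2 fold changes were -0.99 to -0.37, with a median of -0.65. In all 7 every TranspExer sample was below every TranspCtrl sample, against 25.1% of all tested genes. *Gbp7* was at 113, 96.0 and 87.5 CPM in TranspCtrl and at 50.3, 50.6 and 48.9 CPM in TranspExer. The 3 TranspExer samples were nearly equal, and the TranspCtrl level was 1.98-fold higher (log2 fold change -0.99, SE 0.10, adjusted p = 0.000443, edgeR). *Iigp1* was at 220, 218 and 224 CPM in TranspCtrl and 148, 139 and 129 CPM in TranspExer. Here replicate 1 lay between the other samples of its group, and the log2 fold change was -0.67 (SE 0.08, adjusted p = 0.0008, edgeR), the same to 2 decimals without it.

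*Irgm1*, which restrains the other IRGs on the cell's own membranes, had the highest level per kilobase of the class. It was at 215, 199.5 and 187 CPM in TranspCtrl and 157, 155 and 155 CPM in TranspExer. Its fold was the smallest of the 7 (log2 fold change -0.37, SE 0.08, adjusted p = 0.011, edgeR), and the call was lost without TranspExer replicate 2 (adjusted p = 0.0568). *Gbp2* (-0.65, adjusted p = 0.0011), *Gbp3* (-0.40, adjusted p = 0.00752) and *Igtp* (-0.50, adjusted p = 0.0252) were lower as well by edgeR, and *Igtp* was at -0.32 without TranspCtrl replicate 1. *Gbp5* was at 45.9, 28.7 and 28.0 CPM in TranspCtrl and 21.4, 23.1 and 16.5 CPM in TranspExer, so that replicate 1 stood far above the others. Its log2 fold change was -0.75 (SE 0.21, adjusted p = 0.0292, edgeR) and became -0.49 without that replicate. Calls of *Gbp5* and *Igtp* were lost when any 1 of the 3 TranspExer replicates was left out, where the adjusted p was 0.0605 to 0.114. All 7 were also called lower without TranspCtrl replicate 1, against 19.6% of all tested genes. Without TranspExer replicates 1, 2 and 3 in turn 5, 4 and 5 were, against 9.06%, 8.48% and 8.72%. The macrophage markers, 3 of 10 of which were lower in TranspExer, had their highest sum in TranspCtrl replicate 1, mostly through *Lyz2*. Of the B cell and plasma cell markers 8 of 10 were lower, at a mean difference of -1.58 in log2 CPM, and of the stromal markers 6 of 10, at -0.35. Higher in TranspExer were 2 stromal markers and 1 macrophage marker. All 10 endothelial markers were higher, at a mean difference of 1.40. Of 10 neutrophil markers 4 were higher and 1 lower, at 0.56. The part of these cell types in the GBP and IRG differences was not tested.

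Genes of the same families that are not members were examined after their values had been seen. They were taken only from the list of other interferon-inducible genes described below, not from a search of all genes. Of 10 tested non-member GBP and IRG genes, 9 were lower, none was higher, and all 10 log2 fold changes were negative (-1.25 to -0.20). *Gbp10* had the most negative, at 4.15, 3.44 and 2.65 CPM in TranspCtrl and 1.36, 1.28 and 1.64 CPM in TranspExer, which is low but without overlap. Without TranspCtrl replicate 1, 9 were again lower, against 19.6% of all tested genes. When any 1 TranspExer replicate was left out 7 were, against 8.48% to 9.06%. The 3 non-member OAS genes of that list (*Oas1b*, *Oas1c* and *Oas1g*) were not called, at log2 fold changes of -0.30 to 0.27. *Oas1g* turned negative under the upper-quartile and library-size scalings and without TranspCtrl replicate 3 (-0.03). When TranspCtrl replicate 1 was left out all 3 were positive (0.18 to 0.38), *Oas1b* included, and *Oas1g* was called higher (adjusted p = 0.0238, edgeR).

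**Figure D4:**
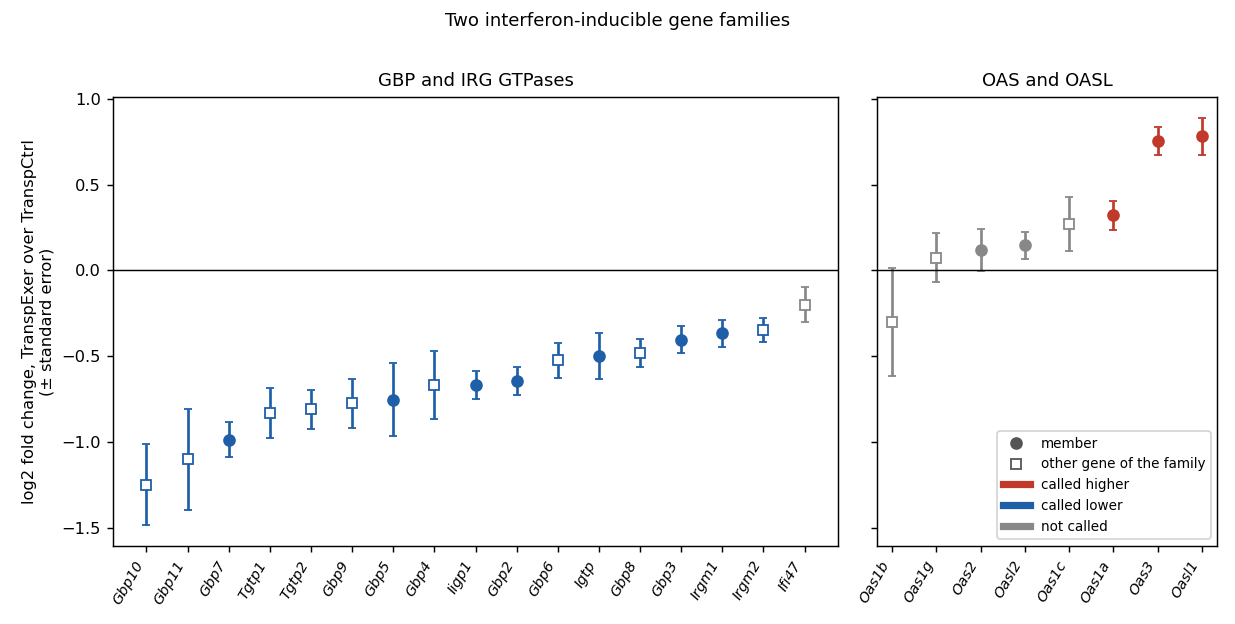
Log2 fold change of TranspExer over TranspCtrl with its standard error for tested GBP and IRG genes (left) and OAS genes (right). Genes are those of the members (filled circles) and of the list of other interferon-inducible genes (open squares), coloured by the edgeR call. All 17 GBP and IRG genes lie below 0, and the OAS members lie above 0.

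Sensors of foreign nucleic acids were divided. *Ifih1*, which encodes MDA5, a receptor for long double-stranded RNA, was at 65.6, 67.7 and 65.8 CPM in TranspCtrl and 75.9, 81.1 and 84.0 CPM in TranspExer. The groups did not overlap, and its level was higher in TranspExer (log2 fold change 0.28, SE 0.07, adjusted p = 0.0232, edgeR). The call was lost in 6 of the 12 alternatives, among them those without TranspCtrl replicate 3 (adjusted p = 0.0737) and without TranspExer replicate 2 (0.102) or 3 (0.101). *Ddx58*, which encodes RIG-I, a receptor for short RNA with a free 5′ triphosphate, was at 152, 135 and 129 CPM in TranspCtrl and 109, 116 and 109 CPM in TranspExer. It was lower in TranspExer (-0.31, SE 0.09, adjusted p = 0.0256, edgeR), with the call lost when any 1 TranspExer replicate was left out (adjusted p 0.0716 to 0.0931). The 2 sister receptors were thus called in opposite directions.

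*Zbp1*, a sensor of nucleic acids in the left-handed Z form that can start necroptosis, was at 100.2, 85.0 and 80.6 CPM in TranspCtrl and 64.0, 60.04 and 58.0 CPM in TranspExer. All TranspExer samples were below all TranspCtrl samples, and the log2 fold change was -0.55 (SE 0.10, adjusted p = 0.00523, edgeR). *Eif2ak2*, the kinase PKR, which stops translation when it binds double-stranded RNA, was at 95.6, 72.8 and 69.5 CPM in TranspCtrl and 52.0, 54.9 and 56.2 CPM in TranspExer. It was lower by -0.54 on the log2 scale (SE 0.12, adjusted p = 0.0136, edgeR), and when any 1 TranspExer replicate was left out the adjusted p was 0.052 to 0.0647. *Dhx58*, which encodes LGP2, the regulator of both receptors, was not called (0.25, adjusted p = 0.11, edgeR), but was called higher without TranspCtrl replicate 1 (0.38, adjusted p = 0.000424).

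Among the transcription factors, *Irf7*, which amplifies type I interferon production, was the one member called. It was at 172, 149 and 157 CPM in TranspCtrl and 213, 219.5 and 223 CPM in TranspExer. The groups were clearly apart, and the log2 fold change was 0.46 (SE 0.08, adjusted p = 0.00502, edgeR). *Irf1*, a factor that is induced strongly by interferon gamma, was at 159.6, 98.9 and 99.5 CPM in TranspCtrl and 90.2, 92.2 and 80.4 CPM in TranspExer. TranspCtrl replicate 1 was far above the other 5 samples, and the log2 fold change of -0.45 (SE 0.18) did not pass the test (adjusted p = 0.0976, edgeR). It was -0.18 with an adjusted p of 0.0387 without that replicate. *Stat2* (-0.10, adjusted p = 0.491) and *Irf9* (0.00, adjusted p = 0.984), both parts of the ISRE-binding complex, overlapped between the groups and were not called by edgeR. They were at 0.01 and 0.05 without TranspCtrl replicate 1, again not called.

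Some IFIT proteins bind viral RNA that lacks the methyl marks of the cell's own RNA. The 5 IFIT members lie in a single cluster on chromosome 19 (chr19:34550694-34650009). Only *Ifit3b* was called higher, at 12.7, 11.4 and 10.8 CPM in TranspCtrl and 15.4, 18.02 and 15.7 CPM in TranspExer (log2 fold change 0.49, SE 0.11, adjusted p = 0.0143, edgeR). Its groups did not overlap, and the call was lost without TranspExer replicate 2 (adjusted p = 0.0758) or 3 (adjusted p = 0.0508). Its near copy *Ifit3* was at 87.4, 62.5 and 65.6 CPM in TranspCtrl and 97.5, 82.6 and 89.8 CPM in TranspExer, with TranspCtrl replicate 1 inside the TranspExer range (0.33, SE 0.13, adjusted p = 0.0999, edgeR). Beside the identical promoter stretch printed above, part of a shared run of 169 bases, 51.2% of the 50-base words of *Ifit3* transcripts also occur in *Ifit3b*, so the division of reads between them is uncertain. With the counts of the pair summed, the log2 fold change was 0.35. *Ifit2* (0.26, adjusted p = 0.112), *Ifit1* (-0.38, adjusted p = 0.115) and the weakly expressed *Ifit1bl1* (0.08, adjusted p = 0.859) were not called by edgeR. *Ifit1* was at -0.15 and *Ifit1bl1* at 0.34 without TranspCtrl replicate 1, still not called. Without TranspCtrl replicate 1, *Ifit2* (0.39, adjusted p = 0.00017) and *Ifit3* (0.49, adjusted p = 0.000118) were called higher as well, and *Ifit3* was also called with the replicate number as a block (0.34, adjusted p = 0.0342).

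Isg15 is a ubiquitin-like protein that is attached to other proteins, in the mouse by the ligase Herc6, and removed by Usp18. None of the 3 genes was called. *Isg15* was at 58.2, 23.8 and 28.1 CPM in TranspCtrl and at 31.3, 24.8 and 21.3 CPM in TranspExer. Only TranspCtrl replicate 1 stood out, the groups overlapped, and the log2 fold change of -0.51 (SE 0.32, adjusted p = 0.25, edgeR) became -0.02 without that library. *Herc6* was at 46.4, 41.8 and 38.9 CPM in TranspCtrl and 36.6, 40.2 and 38.2 CPM in TranspExer (-0.14, adjusted p = 0.246, edgeR). Its samples were mixed between the groups, as were those of *Usp18* (-0.05, adjusted p = 0.84, edgeR). When TranspCtrl replicate 1 was left out *Herc6* was at -0.07 and *Usp18* at 0.16, neither of them called.

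Of the 6 remaining members, *Trim30a* was higher and *Parp14* lower. *Trim30a*, a tripartite-motif protein that dampens inflammatory signalling, was at 152, 159.7 and 162 CPM in TranspCtrl and 191, 187 and 183 CPM in TranspExer. The groups did not overlap, but the shift was small (log2 fold change 0.24, SE 0.07, adjusted p = 0.0341, edgeR). *Parp14*, which attaches ADP-ribose to proteins, was at 236, 179.5 and 174 CPM in TranspCtrl and 147, 149 and 155 CPM in TranspExer. Its log2 fold change was -0.38 (SE 0.12, adjusted p = 0.0437, edgeR), and -0.23 without TranspCtrl replicate 1. The call of *Trim30a* was lost in 9 of the 12 alternatives, among them those without each replicate other than TranspCtrl replicate 1 (adjusted p 0.0721 to 0.123), and that of *Parp14* in 4, among them those without each TranspExer replicate (0.108 to 0.136). With the replicate number as a block the adjusted p was 0.0718 for *Trim30a* and 0.0549 for *Parp14*. *Ifi27*, the member of this class with the highest level per kilobase in TranspCtrl, was at 70.1, 49.8 and 53.4 CPM there and 47.7, 43.8 and 42.9 CPM in TranspExer. The groups were separate by a small gap, and the adjusted p was 0.0636 (log2 fold change -0.37, SE 0.13, edgeR). With the block it was 0.0355 and without TranspCtrl replicate 1 it was 0.0263, at a log2 fold change of -0.21, and *Ifi27* was called lower in 5 of the 12 alternatives in all. *Ifi35*, *Ifi44* and *Xaf1* overlapped between the groups, at log2 fold changes of -0.24 to 0.17. When TranspCtrl replicate 1 was left out *Ifi35* was called higher (0.25, adjusted p = 0.0096, edgeR), and *Xaf1* was at -0.02 and *Ifi44* at -0.05, neither of them called.

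**Figure D5:**
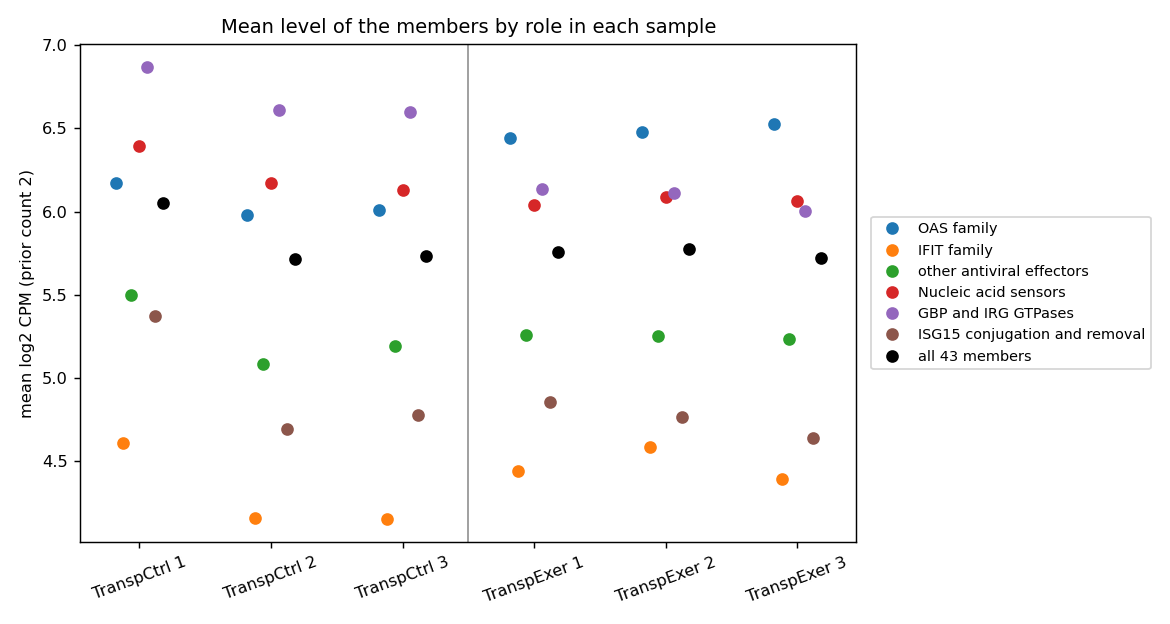
Mean log2 CPM per sample over the members of 6 roles and over all 43 members (black), with the 3 TranspCtrl samples left of the line and the 3 TranspExer samples right of it. The OAS mean is higher in every TranspExer sample and the GBP and IRG mean lower, while the mean over all members is about the same in 5 samples and higher in TranspCtrl replicate 1.

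Averaged by role, the direction differed in the same way. The OAS mean was 6.17, 5.98 and 6.01 log2 CPM in TranspCtrl and 6.44, 6.48 and 6.53 in TranspExer, a difference of 0.43 with no overlap. The mean of the GBP and IRG members was 6.87, 6.61 and 6.60 in TranspCtrl and 6.14, 6.11 and 6.00 in TranspExer, a difference of -0.61 with no overlap. The mean of the sensors was 6.40, 6.17 and 6.13 for TranspCtrl and 6.04, 6.09 and 6.06 for TranspExer, a smaller difference of -0.17, also without overlap, and of -0.09 without TranspCtrl replicate 1. The IFIT mean (difference 0.17), the transcription factors (-0.01) and the other antiviral effectors (-0.01) overlapped between the groups, as did the ISG15 genes (-0.19) and the remaining members (-0.11). With that library left out, the TranspExer means of the IFIT genes (0.32), the transcription factors (0.10) and the other antiviral effectors (0.11) lay above those of TranspCtrl without overlap, the OAS difference was 0.49 and that of the GBP and IRG members -0.52, and the means of the ISG15 genes (0.02) and the remaining members (-0.01) still overlapped. Of the marker lists with tested genes, the mean was higher in TranspExer for endothelial (1.40) and neutrophil (0.56) markers. It was lower for B cell and plasma cell (-1.58), stromal (-0.35), plasmacytoid dendritic cell (-0.29), macrophage (-0.19) and T and NK cell (-0.14) markers. The part of these cell types in the role means was not tested. The role and marker means are descriptions and carry no test.

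The signal that drives these genes was sought in a list of 57 interferon signalling genes, of which 36 were tested. Among 20 ligands, 19 had no count in any sample, *Ifnb1* included, and *Ifng*, which the low-count filter removed, had 16, 4 and 6 counts in the TranspCtrl group against 7, 4 and 4 in the TranspExer group. A count of 0 allows up to 3 counts per sample, and the high value of *Ifng* was again in TranspCtrl replicate 1. Of the type I receptor chains, *Ifnar1* was at 145 to 150.2 CPM in TranspCtrl and 123 to 134 CPM in TranspExer without overlap (log2 fold change -0.19, adjusted p = 0.0811, edgeR), and *Ifnar2* was not called (0.08, adjusted p = 0.466). Of the interferon gamma receptor chains, *Ifngr1* was higher (0.24, adjusted p = 0.0469, edgeR) and *Ifngr2* was not called (0.14, adjusted p = 0.309). The call of *Ifngr1* was lost in 10 of the 12 alternatives, among them those without TranspCtrl replicate 2 or 3 and without each TranspExer replicate (adjusted p 0.0729 to 0.153).

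In the signalling list 6 of 36 tested genes were higher (16.7%) and 4 lower (11.1%), against 16.6% and 15.5% of all tested genes (10 and 6 without TranspCtrl replicate 1, and 3 and 4 when any 1 TranspExer replicate was left out). The factor *Irf4*, known from plasma cells and macrophages, was at 88.1, 90.0 and 92.9 CPM in TranspCtrl and 17.5, 19.6 and 18.03 CPM in TranspExer. The gap was many times the spread within a group (log2 fold change -2.30, SE 0.08, adjusted p = 9.98e-06, edgeR), and the B cell and plasma cell markers, 8 of 10 lower, differed the same way, which was not tested further. The feedback inhibitor *Socs3* was lower (-1.03, SE 0.08, adjusted p = 0.000131, edgeR). *Irf5* (0.68, adjusted p = 0.000401) and *Irf8* (0.73, adjusted p = 0.000862), both known from myeloid cells, were higher by the same test.

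Among other interferon-inducible genes, 89 of 93 listed and found were tested, 7 were higher (7.87%) and 22 lower (24.7%), against 16.6% and 15.5% of all tested genes. The lower count included the 9 GBP and IRG genes above. *Cxcl9*, a chemokine induced by interferon gamma, was at 62.2, 44.7 and 49.5 CPM in TranspCtrl and 23.5, 25.6 and 20.5 CPM in TranspExer. *Cxcl10*, its relative, was at 31.1, 25.6 and 26.6 CPM in TranspCtrl and 14.1, 15.8 and 13.4 CPM in TranspExer. Neither overlapped between the groups, and the log2 fold changes were -1.17 (adjusted p = 0.000815) and -0.94 (adjusted p = 0.000823) by edgeR. *Tgtp2*, an IRG (-0.81, adjusted p = 0.00162), and *Ifitm1*, which blocks virus entry (-0.87, adjusted p = 0.00212), completed the smallest adjusted p-values of the list. Without TranspCtrl replicate 1, 25 genes of the list were higher and 24 lower, against 22.1% and 19.6% of all tested genes in that setting. Without TranspExer replicates 1, 2 and 3 in turn, 3 were higher each time and 12, 11 and 12 were lower, and without TranspCtrl replicate 3, 3 were higher. The shares of all tested genes in these settings, for this list and the signalling list, are those given for the members.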

How the data were processed

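Gene counts of BM MSCs came from 3 TranspCtrl and 3 TranspExer samples, grouped by the sample labels. The authors deposited expected counts (estimated reads per gene, not normalized, of which 10.1% to 12.2% per sample were not whole) with a gene length. The build was mm10 per the submitters' processing notes, and the aligner, counter and annotation are not given in the sources used here. The library kit is a stranded one per the labels and another in the paper's methods, so the use of strand in counting is unknown.

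Counts were rounded and tested with edgeR 4.0.16 in R 4.3.3 (filterByExpr, TMM, quasi-likelihood test, no term but the group), and p-values of the 15190 genes were adjusted by Benjamini-Hochberg. With 3 against 3 samples, an exact permutation test of 1 gene cannot go below 0.1, so these p-values rest on variance shared across genes. SE was the log2 fold change divided by the root of F. CPM used TMM factors, and log2 CPM a prior count of 2. CPM per kb used the deposited length. Gene positions and shared 50-base words came from GENCODE M21 (GRCm38), and promoters from RefSeq (GRCm38.p6). The tests were checked on simulated data.

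The members, gene lists and tests were chosen with earlier results of these data known. Values per sample were given for DEGs, for the 2 smallest adjusted p-values and the highest level per kilobase in each role, and for members whose call an alternative removed, where space allowed. From the pathway lists up to 4 genes with the smallest adjusted p-values were named, beside *Ifnb1*, *Ifng*, *Ifnar1*, *Ifnar2*, *Ifngr1* and *Ifngr2*, and 1 further gene of that rule is not reported here. Other genes were named after their values were seen. The alternatives were DESeq2 1.42.0, upper-quartile and library-size scaling, other filters, the replicate block, a fold of 2 tested in the model, and each sample left out in turn. Where a group kept 1 sample fewer, the spread was estimated from the remaining 5 samples.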

Additional observations from a re-analysis of the deposited data

How the results depend on the processing

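Each group had 3 samples, TranspCtrl replicate 1 stood apart, and the division of reads between gene copies is undocumented. How far each of these limited precision was not tested. No called member changed direction. Over the 12 alternatives, and the summed counts of *Ifit3* and *Ifit3b* as a further one for *Ifit3*, results for single members kept their side of the threshold in 457 cases, lost it in 41 and gained it in 19. The cause of these changes was not tested. Leaving out 1 sample, the members called higher ranged from 5 to 17 and lower from 6 to 15, the interferon signalling genes called higher from 3 to 10, and the other interferon-inducible genes called higher from 3 to 25 and lower from 11 to 24. The downregulated DEGs among members ranged from 1 to 2, all tested genes called higher from 1315 to 3417 and lower from 1325 to 3041. The difference in mean log2 CPM over the members ranged from -0.139 to 0.0282, the latter without TranspCtrl replicate 1. Other interferon-inducible genes called higher numbered 4 with upper-quartile scaling and 3 with library size only. Downregulated DEGs among members numbered 2 with upper-quartile scaling, with library size only and with a filter of at least 1 CPM, *Gbp7* being the second, and upregulated ones 0 with library size only. With a fold of 2 tested in the model, 0 members were upregulated or downregulated, against 138 and 274 of all tested genes. At an unadjusted p under 0.05 that edgeR test gave 0 members higher and 1 lower (*Isg20*), and DESeq2 with both thresholds gave 1 and 1.

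No pairing by replicate number was seen. Same-numbered samples deviated from their group means with correlations of 0.0247, -0.00167 and 0.0416, and differently numbered samples with correlations of -0.0807 to 0.0736. With 3 samples per group, these values cannot decide whether the samples were paired. With the replicate block, 9 members were called higher and 12 lower, of which 8 and 11 were also called without it: *Trim30a* and *Parp14* lost their calls, and *Ifit3* and *Ifi27* gained one.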

Other observations

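The members spanned a wide range of levels. Per kilobase of gene length, *Bst2* (209 CPM per kb in TranspCtrl), *Samhd1* (115), *Irgm1* (88.7) and *Irf7* (83.2) were the most abundant, and *Ifit1bl1* (0.62) the least. In TranspExer *Bst2* was at 150, *Samhd1* at 122, *Irf7* at 114 and *Irgm1* at 68.8 CPM per kb, so that *Irf7* stood above *Irgm1*.

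Some members that lie next to each other on a chromosome were called the same way and others were not. *Gbp5*, *Gbp7*, *Gbp3* and *Gbp2* lie in that order on chromosome 3 and all were lower. *Rsad2* and *Cmpk2* lie in opposite orientation on chromosome 12 and both were higher. Of the 5 IFIT genes on chromosome 19, only *Ifit3b* was called. On chromosome 5 *Oas3* and *Oas1a* were higher and *Oas2*, on the other side of *Oas3* from *Oas1a*, was not called. *Oasl1* was higher and its neighbour *Oasl2* was not called. Without TranspCtrl replicate 1, *Oas2*, *Oasl2*, *Ifit2* and *Ifit3* were called higher too, so these contrasts depend on that library. *Igtp* overlaps *Irgm2* on the same strand and shares 11.8% of its 50-base words with it, and both were lower.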
